A study of Mus musculus with 2 samples.

Results

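Haemoglobin transcripts were followed through the droplets of a single-nucleus RNA-seq study of mouse interscapular brown adipose tissue. The set was the 4 adult haemoglobin genes found by symbol in the deposited gene list, of 32285 genes in all: Hba-a1 and Hba-a2, which encode the alpha chain, and Hbb-bs and Hbb-bt, which encode the beta chain. The genes were chosen by their level per library and per total-UMI bin in these same data, in counts per 1000000 UMIs (CPM) of the barcodes summed, with a threshold of 3 haemoglobin UMIs in knockout (KO) barcodes of fewer than 1000 UMIs. Those values are therefore a description and support nothing. A UMI is a molecular tag that marks 1 captured RNA molecule, and a barcode stands for 1 droplet. The paper counted the deposited barcodes as nuclei, but analysed only those that passed its quality control. All deposited barcodes are used here, so some of them were left out by the authors. The wild-type (WT) library came from SRSF1 flox/flox mice without Cre and the KO library, labelled SRSF1_KO, from littermates that also carried Cre under the Adipoq promoter. Both groups were 8 weeks old and male, and the study's mice were perfused with cold saline when tissue was taken. This promoter drives Cre in mature adipocytes, so other cell types of the KO tissue keep the gene, and mice of both groups carried the floxed alleles. There was 1 library per genotype, and how many mice each library held was not given in the sources used here. No difference between genotypes could be tested, and every interval below covers counting error alone.

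Haemoglobin is the oxygen carrier of red cells, a tetramer of alpha and beta chains that each bind a haem group. Erythroid precursors make its messenger RNA in very large amounts, and reticulocytes and young red cells keep part of it after the nucleus has been lost. In droplet data the same molecule can come from a red cell or reticulocyte in the droplet, from free RNA in the suspension, or from the nucleus itself, and a count alone does not tell these apart.

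The coding ends of the 4 genes are shown because droplet reads lie near the 3′ end of a transcript. Each pair is almost identical in its coding end, while past the stop codon only the alpha pair is. The stretches are the last 120 coding bases with the stop codon, all in exon 3, taken from the GENCODE transcripts on GRCm38 and written 5′ to 3′ in the direction of the gene. The capital marks the base at which a pair differs.
Hba-a1: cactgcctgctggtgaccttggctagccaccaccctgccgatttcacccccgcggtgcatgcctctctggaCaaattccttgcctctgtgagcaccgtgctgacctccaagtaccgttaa
Hba-a2: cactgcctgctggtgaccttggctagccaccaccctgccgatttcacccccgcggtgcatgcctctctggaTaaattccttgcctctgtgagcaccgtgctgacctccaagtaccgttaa
Hbb-bs: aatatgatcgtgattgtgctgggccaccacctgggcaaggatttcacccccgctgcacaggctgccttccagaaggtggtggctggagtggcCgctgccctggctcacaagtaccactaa
Hbb-bt: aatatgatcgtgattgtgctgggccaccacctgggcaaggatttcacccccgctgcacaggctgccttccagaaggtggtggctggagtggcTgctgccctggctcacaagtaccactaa
Hba-a1 (ENSMUSG00000069919) lies on chr11:32283511-32284465, plus strand, and its stretch on chr11:32284272-32284391. Hba-a2 (ENSMUSG00000069917) lies on chr11:32296489-32297298, plus strand, and its stretch on chr11:32297089-32297208. Hbb-bs (ENSMUSG00000052305) lies on chr7:103826534-103828096, minus strand, and its stretch on chr7:103826665-103826784. Hbb-bt (ENSMUSG00000073940) lies on chr7:103812524-103813996, minus strand, and its stretch on chr7:103812656-103812775. The alpha genes differ at 1 of 429 coding bases, C381T with positions counted from the A of the start codon and Hba-a1 given first. The 74 bases that follow the stop codon in Hba-a1 are identical in Hba-a2. The beta genes differ at 1 of 444 coding bases, C417T with Hbb-bs first, but the stretches after their stop codons match at only 95 of 128 aligned bases. Reads from the shared alpha end cannot be assigned to Hba-a1 or Hba-a2, so the split between these 2 genes is uncertain. Where such reads were left uncounted, the sum of the alpha genes is too low as well, which does not hold in the same way for the beta genes with their distinct ends.

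The WT library held 12846 barcodes with 93102814 UMIs in all and the KO library 11495 barcodes with 80090208 UMIs. The lowest barcode had 750 UMIs in WT and 500 UMIs in KO, so the bin under 1000 UMIs reached lower in KO. The median share of mitochondrially encoded UMIs was 1.10% in WT and 0.0491% in KO. The libraries shared 52 barcode sequences, which carried 36 haemoglobin UMIs in WT and 18 in KO. Srsf1, the targeted gene, stood at 169 CPM in WT (15702 UMIs) and 66.8 in KO (5351 UMIs) over all cell types. The deepest barcodes reached 946027 total UMIs in WT and 298232 in KO, and doublets were not removed.

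Summed over the 4 genes, haemoglobin reached 136.8 CPM in the WT library (95% Poisson interval 134.4 to 139.2, 12736 UMIs). In the KO library it reached 85.6 CPM (83.6 to 87.7, 6859 UMIs). Relative to WT, the KO level was -0.68 on the log2 scale (-0.72 to -0.63). Hbb-bs was the most abundant member in both libraries, at 63.5 CPM in WT and 35.5 in KO. Hba-a1 followed at 31.8 and 23.5, Hba-a2 at 30.4 and 19.96, and Hbb-bt was lowest at 11.02 and 6.63. The intervals of Hba-a1 (30.7 to 33.0) and Hba-a2 (29.3 to 31.6) overlapped in WT, while the other neighbours in that order did not overlap. The order was the same in KO, where no intervals overlapped. Haemoglobin UMIs were unevenly spread over barcodes, with a variance over mean of 84.4 in WT and 265.8 in KO. Poisson intervals are therefore too narrow here, and whether they overlap does not settle the order. The 4 log2 ratios of KO to WT were -0.44 for Hba-a1, -0.61 for Hba-a2, -0.84 for Hbb-bs and -0.73 for Hbb-bt. None of the 4 was 2-fold or more lower in KO, against 18.1% of the 18497 genes with at least 50 UMIs over both libraries. This contrast was used to choose the genes, and nothing is read from that count.

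A few droplets held much of the haemoglobin. The richest KO barcode carried 1055 haemoglobin UMIs among 3855 in all (27.4%), which is 15.4% of the haemoglobin of its library. The richest WT barcode carried 811 among 1340 (60.5%), or 6.37% of its library. Barcodes with 30 or more haemoglobin UMIs numbered 27 in KO and 45 in WT. They held 58.1% of all haemoglobin UMIs in KO and 32.0% in WT. Barcodes with 1 or 2 haemoglobin UMIs were far more frequent in WT, 4051 barcodes with 38.1% of the UMIs, than in KO, 1068 barcodes with 17.6%. Every one of the 10 richest barcodes of either library carried UMIs of all 4 genes.

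The gap between the libraries therefore depended on the rich barcodes. With the barcodes of 30 or more haemoglobin UMIs left out, the level was 96.0 CPM in WT and 36.1 in KO, a log2 ratio of -1.41 (-1.47 to -1.35). With those of 10 or more left out it was 81.9 in WT and 26.9 in KO, a log2 ratio of -1.61 (-1.68 to -1.54). Both limits were chosen after seeing the data.

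**Figure D1:**
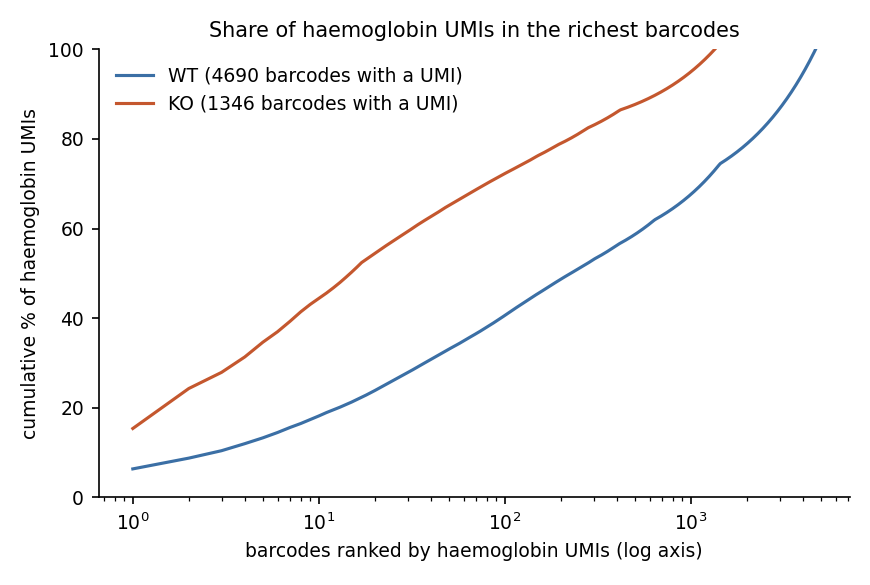
Cumulative percentage of the haemoglobin UMIs of a library (y axis) over its barcodes ranked from most to fewest haemoglobin UMIs (x axis, log scale), 1 line per library. The 10 richest barcodes hold 44.4% of the haemoglobin UMIs in KO and 18.2% in WT, and the 100 richest hold 72.3% and 40.6%.

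Of the 3 total-UMI bins, the one under 1000 UMIs had the highest level in CPM in both libraries. With finer limits the fall was not steady. WT rose from 826 CPM at 750 to 1000 UMIs to 1025.5 at 1000 to 1500. KO stood at 503 CPM under 750 UMIs and 1741.8 at 750 to 1000. It rose again from 56.6 at 2000 to 3000 to 156.1 at 3000 to 5000. In WT the sum was 826 CPM under 1000 total UMIs (780 to 874), 518 between 1000 and 3000 (502 to 534) and 89.8 above 3000 (87.8 to 91.9). In KO the values were 1132.5 (1055.4 to 1213.7), 129 (120 to 138) and 72.1 (70.2 to 74.1). The shallow bin stood 9.197-fold above the deep bin in WT and 15.7-fold above it in KO. The KO fold depended on the limits, with a log2 ratio of 3.97 as given, 2.82 with bins at 750 and 2000 and 4.53 without barcodes of 10 or more haemoglobin UMIs. The 4 genes moved side by side, by 8.96-fold (Hbb-bs) to 9.54-fold (Hbb-bt) in WT and by 14.9-fold (Hbb-bs) to 16.9-fold (Hba-a1) in KO. All 4 were thus at least 2-fold higher in the shallow bin, against 10.8% of 16442 genes in WT and 12.1% of 16289 genes in KO. The bins also chose the genes, so these counts are no finding about them.

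**Figure D2:**
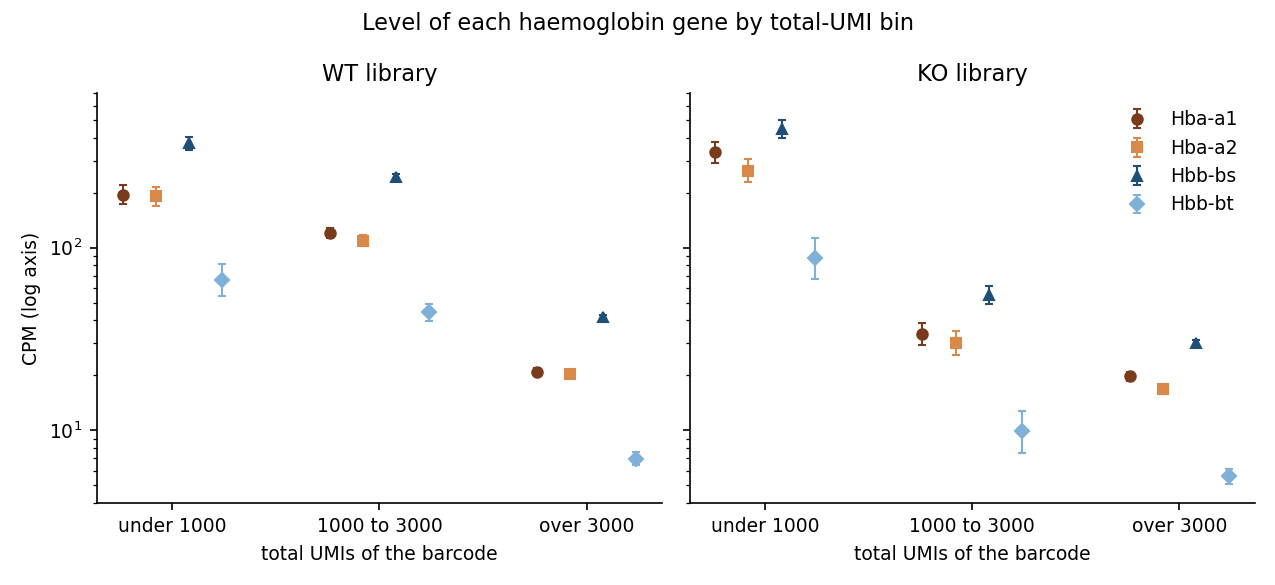
CPM of each haemoglobin gene (y axis, log scale) in the 3 total-UMI bins (x axis) of the WT and KO libraries, with 95% Poisson intervals. In WT, Hbb-bs falls from 373 to 244 and 41.6 CPM and the other genes fall in parallel, while in KO it falls from 447 to 55.1 and 30.02.

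Counted per barcode instead of in CPM, haemoglobin in WT rose little over the 3 bins, but it rose among the deepest barcodes. The mean was 0.714 haemoglobin UMIs per barcode under 1000 total UMIs, 0.926 between 1000 and 3000 and 1.10 above 3000. The median total UMIs of these bins were 862, 1721.5 and 7291. Inside the bin above 3000, the 1832 WT barcodes of 10000 or more UMIs held 4056 haemoglobin UMIs, and 47.2% held at least 1. The 3695 WT barcodes of 5000 to 10000 UMIs held 2313, and 35.0% held at least 1. Without barcodes of 10 or more haemoglobin UMIs the 3 means were 0.433, 0.508 and 0.600. In KO the means were 0.817, 0.259 and 0.698, and 0.323, 0.138 and 0.184 without such barcodes, so the intermediate bin was lowest there. The fall of the CPM with depth thus went with a rising total rather than with fewer haemoglobin molecules per WT droplet.

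In WT, 34.1% of barcodes under 1000 UMIs held at least 1 haemoglobin UMI (95% binomial interval 31.9 to 36.4), 34.3% of those between 1000 and 3000 (32.8 to 35.7) and 38.5% of those above 3000 (37.4 to 39.7). The first pair of intervals overlapped. In KO the shares were 16.9% (14.6 to 19.4), 8.92% (7.91 to 10.0) and 12.1% (11.4 to 12.9). Every barcode was then thinned to 500 UMIs, with none left out. The expected shares became 22.1%, 13.9% and 4.35% in WT and 13.7%, 3.60% and 1.51% in KO. In all 3 bins the WT share was above the KO share, before and after thinning.

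The order of the libraries differed between the bins. KO was above WT under 1000 UMIs (log2 ratio 0.46, 0.33 to 0.59) and below it between 1000 and 3000 (-2.01, -2.12 to -1.89) and above 3000 (-0.32, -0.37 to -0.27). The excess under 1000 UMIs rested on very few droplets. The 2 richest KO barcodes there held 371 of the 801 haemoglobin UMIs, and without them the KO level was 609 CPM (553 to 670). Without the 2 richest WT barcodes of the bin the WT level was 662 (621 to 705). With barcodes of 30 or more haemoglobin UMIs left out the log2 ratio was 0.013 (-0.17 to 0.19), and with those of 10 or more left out it was -0.16 (-0.36 to 0.03). Bins cut at 1500 UMIs turned it to -0.36. Between 1000 and 3000 UMIs the gap also depended on the bins, with -0.68 for bins at 750 and 2000 and -1.14 for bins at 1500 and 5000. With barcodes of 30 or more and of 10 or more left out, the ratio above 3000 UMIs moved to -1.30 and -1.46.

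In the KO library 46 of the 980 barcodes under 1000 UMIs carried 3 or more haemoglobin UMIs (4.69%, 3.46 to 6.21). They held 657 haemoglobin UMIs, 82.0% of those in the bin and 9.58% of those in the library. Their haemoglobin UMIs ran from 3 to 225 with a median of 5. The richest held 225 of 756 UMIs and the next 146 of 754, followed by a barcode with 47, and 17 of the 46 sat exactly at 3. Their total UMIs ran from 503 to 941 (median 757.5) and their detected genes from 388 to 693 (median 555). Both chains were present in 40 of the 46. Hba-a1 was seen in 42 of them with 194 UMIs, Hba-a2 in 30 with 149, Hbb-bs in 42 with 270 and Hbb-bt in 12 with 44. Just outside the threshold lay 24 KO barcodes with exactly 2 haemoglobin UMIs. Near the depth limit, 7 KO barcodes with 3 or more lay within 100 total UMIs below 1000 (4.07% of that window) and 4 within 100 from 1000 upwards (3.03%).

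In WT the same limits took 39 of 1720 barcodes (2.27%, 1.62 to 3.09), with 589 haemoglobin UMIs, a median of 4 and a highest value of 143. Their total UMIs ran from 753 to 991. The KO library had the larger share at 3 or more although its share at 1 or more was the smaller.

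**Figure D3:**
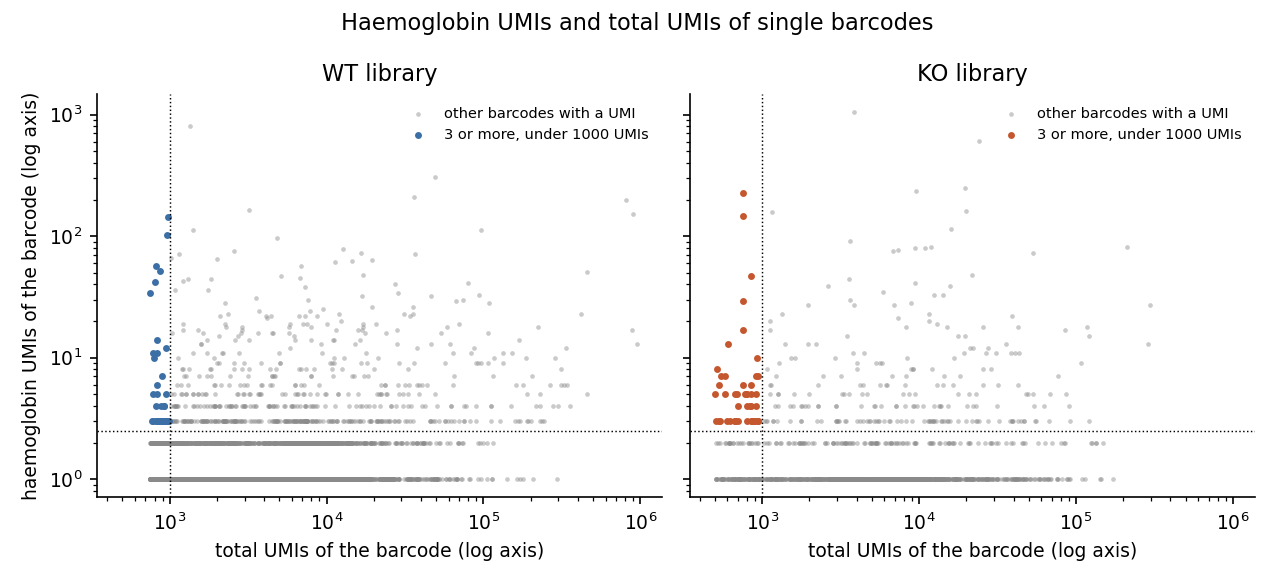
Haemoglobin UMIs (y axis, log scale) against total UMIs (x axis, log scale) of each barcode with at least 1 haemoglobin UMI, in WT and KO. Dotted lines mark 1000 total UMIs and the step between 2 and 3 haemoglobin UMIs, coloured points are the 39 WT and 46 KO barcodes with 3 or more under 1000, and most of the richest barcodes lie to the right of the line.

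The KO barcodes with 3 or more haemoglobin UMIs were also rich in transcripts of the cytoplasm and of mitochondria. Their median mitochondrial share was 2.35%, ranging from 0 in 3 barcodes to 34.8%, against 1.23% in the 120 shallow KO barcodes with 1 or 2 haemoglobin UMIs and 0.240% in the 814 with none. For single genes the 46 barcodes (33542 UMIs without the 4 members) were set against these 814 (585315 UMIs). Of 3009 genes with at least 50 UMIs over both sets, 207 were at least 2-fold higher with haemoglobin (6.88%) and 706 at least 2-fold lower, and the median log2 ratio was -0.36. Barcodes are not replicates, and these are folds of summed counts without a test.

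Among a list of 14 abundant cytoplasmic transcripts, 13 were at least 2-fold higher in the barcodes with haemoglobin, with a median log2 ratio of 1.67. Gapdh, a glycolytic enzyme, stood at 596 against 61.5 CPM (log2 3.28, 2.41 to 4.10). Fth1, the ferritin heavy chain that stores iron, stood at 1610 against 260 (log2 2.63, 2.16 to 3.09). Actb, cytoplasmic actin, stood at 1401 against 555 (log2 1.34, 0.86 to 1.78). Of 50 genes with symbols of cytosolic ribosomal proteins, a list made after the data were seen, 47 were at least 2-fold higher, with a median log2 ratio of 1.85. Rps3a1 led them together with Rpl26, at log2 2.88 and 2.90.

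Of the 13 mitochondrially encoded genes, 12 could be compared and 9 were at least 2-fold higher, with a median log2 ratio of 1.15. mt-Co1, a subunit of cytochrome oxidase, stood at 5694 against 2576 CPM (log2 1.14, 0.92 to 1.36). mt-Nd1, a subunit of complex I, stood at 3071 against 906 (log2 1.76, 1.44 to 2.07). In the list of brown adipocyte transcripts the summed level was 10255.8 against 2186.9 CPM, of which Fabp4, the fatty acid binding protein of fat cells, gave 318 of 344 UMIs in the 46 barcodes. Fabp4 alone was at 9481 against 1809 (log2 2.39, 2.20 to 2.57) and was seen in 44 of the 46. In the 3 members of this list with enough UMIs, only 1 passed a 2-fold change, and the median log2 ratio was 0.24.

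Nuclear RNAs did not share a direction. Malat1, a noncoding RNA held in the nucleus, was at 36431.9 against 41059.9 CPM (log2 -0.17, -0.26 to -0.09), and Neat1, the RNA of paraspeckles, had a log2 ratio of -0.63 (-1.11 to -0.19). The list sum was nevertheless higher, at log2 0.56, through Gm42418 alone (72029.1 against 30896.2, log2 1.22), a gene model whose symbol gives no function. Of the 5 list members compared, 1 was at least 2-fold higher.

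The 10 genes with the largest ratios were Ighm, Gapdh, Chchd10, Rpl26, Rps3a1, Atp5l, Col8a1, Aldoa, Scp2 and Chchd2, with log2 ratios from 3.37 down to 2.74. Ighm, the heavy chain of immunoglobulin M, led with 19 UMIs in 13 of the 46 barcodes against 32 UMIs in the 814. Chchd10 and Chchd2 encode small mitochondrial proteins, Atp5l a subunit of ATP synthase, Aldoa a glycolytic enzyme and Scp2 a lipid transfer protein. Col8a1, a collagen chain, owed its 18 UMIs to only 2 barcodes. The 5 lowest, Dysf, Rnf216, Afdn, Lnx1 and Tut7, had no UMI in the 46 barcodes. With the limit of 3 counts that a count of 0 allows, Dysf, a membrane repair protein, was at least 3.02-fold lower and Tut7, an RNA uridylyltransferase, at least 2.48-fold lower. Against the barcodes with 1 or 2 haemoglobin UMIs in place of those with none, 11 of 270 genes were at least 2-fold higher (4.07%).

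The enrichment of cytoplasmic and mitochondrial lists was also seen in deeper KO barcodes with 3 or more haemoglobin UMIs. Between 1000 and 3000 UMIs the log2 ratio to barcodes with none was 2.94 for the cytoplasmic list and 3.72 for the mitochondrial list. Above 3000 UMIs these were 1.51 and 2.91. In WT the cytoplasmic list had log2 ratios of 0.80, 1.20 and 0.01 from the shallow to the deep bin and the mitochondrial list 0.65, 1.41 and 0.21. Every one of the 6 log2 ratios was higher in KO than in WT, and the difference between the libraries was not tested. In barcodes with 3 or more haemoglobin UMIs the mitochondrial list stood at 43403, 46064 and 8181 CPM in WT. In KO it was lower, at 35090, 24976 and 4055. In barcodes with none it stood at 27584, 17294 and 7081 in WT and 15721, 1897 and 541 in KO. The cytoplasmic list with 3 or more was higher in KO, at 11866, 8974 and 2176.5 CPM against 5039, 4116 and 772.

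**Figure D4:**
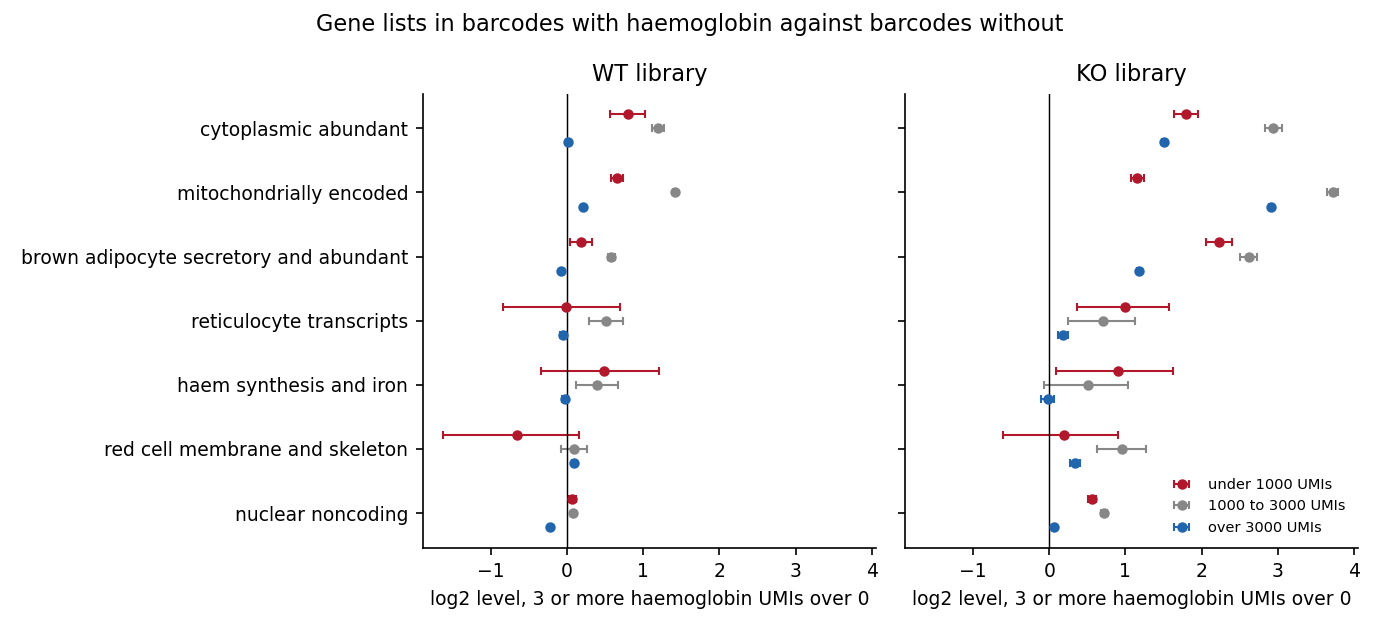
Log2 ratio of the summed level of each gene list in barcodes with 3 or more haemoglobin UMIs over barcodes with none (x axis), by list (y axis), total-UMI bin (colours) and library, with exact 95% intervals for a ratio of counts. In KO the cytoplasmic, mitochondrial and brown adipocyte lists lie right of 0 in every bin, while in the bin under 1000 UMIs the red cell lists have wide intervals.

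Transcripts of red cell precursors were scarce beside haemoglobin. The 6 other globin genes, the embryonic chains Hba-x, Hbb-y, Hbb-bh1 and Hbb-bh2 and the theta globins Hbq1a and Hbq1b, had 0 UMIs in both libraries, which allows at most 3 UMIs in a library for each. Slc4a1, the band 3 anion exchanger of the red cell membrane, had 19 UMIs in WT and 6 in KO. Klf1, an erythroid transcription factor, had 2 and 6. Gata1, which drives erythroid genes, had 34 and 21. In the 72 barcodes with 30 or more haemoglobin UMIs of both libraries together, Slc4a1 had 6 UMIs and Klf1 0. The marker list for erythroid cells named no cluster, but the naming rule gave no name to the shallowest clusters, so nothing follows from this. Among barcodes under 1000 UMIs with 3 or more haemoglobin UMIs, such clusters held most. Cluster 10 held 42 of the 46 in KO and cluster 4 held 33 of the 39 in WT.

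Some red cell genes had many UMIs, most of them outside the haemoglobin-rich droplets. Alas2, the erythroid enzyme of the first step of haem synthesis, had 2671 UMIs in WT and 400 in KO. Of these, 1051 and 154 lay in adipocyte-like nuclei, and 75 and 22 in barcodes with 30 or more haemoglobin UMIs. Bpgm, which makes the red cell effector of oxygen release, had 712 and 453 UMIs, of which 36 and 21 lay in those rich barcodes. In the 46 shallow KO barcodes the list of 17 reticulocyte transcripts summed to 27 UMIs against 236 in the barcodes with none (log2 1.00, 0.37 to 1.58). The 13 genes of haem synthesis and iron summed to 17 against 159 (log2 0.90, 0.08 to 1.62) and the 15 red cell membrane genes to 17 against 260 (log2 0.19, -0.61 to 0.90). The platelet and neutrophil lists had few counts there, too few to give a direction. The 10 platelet genes had 3 UMIs against 21, or 89.4 against 35.9 CPM (log2 1.32, -1.07 to 3.06). The 12 neutrophil genes had 0 UMIs, with an interval up to 110 CPM, against 22 UMIs or 37.6 CPM. Erythroid regulators had 3 against 37 UMIs over the 8 of 9 genes found in the files (log2 0.50, -1.84 to 2.16).

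In deeper barcodes some blood lists were higher with haemoglobin. In KO the platelet list had a log2 ratio of 1.70 (0.23 to 2.87, 6 UMIs against 118) between 1000 and 3000 UMIs and 1.09 (0.83 to 1.34, 151 against 892) above 3000. The red cell membrane list stood at 0.96 (0.62 to 1.28) and 0.34 (0.28 to 0.40) in these KO bins, and the reticulocyte list at 0.71 (0.25 to 1.13) and 0.18 (0.12 to 0.25). The list of haem synthesis and iron had an interval that included 0 in both. In WT the neutrophil list had a log2 ratio of 0.89 (0.69 to 1.09) above 3000 UMIs, and the red cell membrane list 0.09 in both bins. Between 1000 and 3000 UMIs the WT reticulocyte list stood at 0.51 (0.29 to 0.73, 187 UMIs against 1893). The WT list of haem synthesis and iron stood at 0.40 (0.11 to 0.67, 119 against 1306) there. Above 3000 UMIs these 2 WT lists were at -0.047 (-0.085 to -0.008) and -0.025 (-0.066 to 0.016).

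Alpha genes gave 45.5% of haemoglobin UMIs in WT (44.6 to 46.4) and 50.8% in KO (49.6 to 52.0). From the shallow to the deep bin the alpha share was 46.8%, 44.3% and 45.9% in WT and 52.8%, 49.5% and 50.6% in KO, so it stayed within 3.3 points inside a library. It was 52.2% in the 46 shallow KO barcodes (48.3 to 56.1) and 43.3% in the 39 WT barcodes (39.2 to 47.4). Hba-a1 was 51.1% of the alpha UMIs in WT and 54.1% in KO, and Hbb-bs was 85.2% and 84.3% of the beta UMIs. Among the 10 richest barcodes the alpha share ran from 35.3% to 58.0% in WT and from 41.2% to 60.2% in KO. The alpha share may be an undercount, since reads from the end that the alpha genes share may not have been counted while the beta ends can be told apart. UMIs that share a droplet are not independent, so the binomial intervals are too narrow for a comparison of libraries.

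Haemoglobin was found in every class of nuclei. Clusters were made without the 4 genes and called like a cell type from marker lists, and clusters that the rule could not name stayed unnamed. In WT the level was 72.9 CPM in adipocyte-like barcodes (69.9 to 76.0) and 252 in endothelial-like barcodes (239 to 265). ASPC-like barcodes, the adipocyte stem and progenitor cells, were at 143, immune-like at 151, mural-like at 168 and Schwann-like at 89.0. In KO adipocyte-like barcodes were at 24.5 (22.1 to 27.2), ASPC-like at 19.5, immune-like at 18.4, mural-like at 60.9 and endothelial-like at 194 (181 to 209). The 23 Schwann-like KO barcodes held 8 haemoglobin UMIs, 91.5 CPM (39.5 to 180). On the log2 scale KO over WT came to -1.57 in adipocyte-like, -2.88 in ASPC-like, -3.04 in immune-like, -1.47 in mural-like and -0.38 in endothelial-like barcodes. Schwann-like barcodes had 0.04 (-1.23 to 1.11), an interval too wide to give a direction. These ratios depended on how the clusters were drawn. At resolution 0.3 the adipocyte-like value turned to 1.43 (73.8 CPM in WT and 199 in KO), as the class then took in 2883 KO barcodes, and the endothelial-like value was -1.40. The immune-like value was -1.92 with the members kept among the variable genes. Without barcodes of 10 or more haemoglobin UMIs the endothelial-like value was -1.28 and the mural-like value -2.30.

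In WT the share of barcodes with a haemoglobin UMI was much alike between classes, from 32.2% in mural-like (28.0 to 36.6) to 38.6% in Schwann-like barcodes (28.4 to 49.6), with 32.9% in adipocyte-like nuclei (31.4 to 34.4), which are not of the red cell lineage. All 6 intervals overlapped, at unequal depths, with median UMIs of 6903 for adipocyte-like and 2309 for endothelial-like WT barcodes. Thinned to 500 UMIs, the WT shares were 4.07% in adipocyte-like, 6.24% in ASPC-like, 6.49% in immune-like, 7.72% in mural-like, 8.80% in Schwann-like and 9.97% in endothelial-like barcodes. No share of a class is taken as expression by its cells, and the source of these UMIs was not tested. In KO the share was 10.1% in adipocyte-like (8.79 to 11.4), 12.0% in endothelial-like (10.4 to 13.9), 6.88% in ASPC-like and 6.48% in immune-like barcodes, at median depths of 6001.5, 2083, 4979 and 4024.5 UMIs, and the thinned shares were 1.33%, 4.16%, 1.24% and 1.03%. Without barcodes of 10 or more haemoglobin UMIs, the endothelial-like level was 190 CPM in WT and 78.6 in KO, and the mural-like level 75.0 and 15.2. Different clusters held most of some classes: cluster 5 held 3779 of the 4003 adipocyte-like WT barcodes and cluster 6 held 2022 of the 2068 in KO, where 4 of 12 adipocyte markers passed. Likewise cluster 3 held 1691 of 2161 endothelial-like WT barcodes and cluster 2 held 1231 of 1362 in KO. The 57 KO barcodes of cluster 3 stood apart at 1355 CPM, above the 278 CPM of its WT barcodes. They held 462 of the 758 haemoglobin UMIs of endothelial-like KO barcodes. In cluster 2 the order was the other way, with 83.3 CPM in KO and 164 in WT. The endothelial-like ratio thus joins clusters of opposite order.

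**Figure D5:**
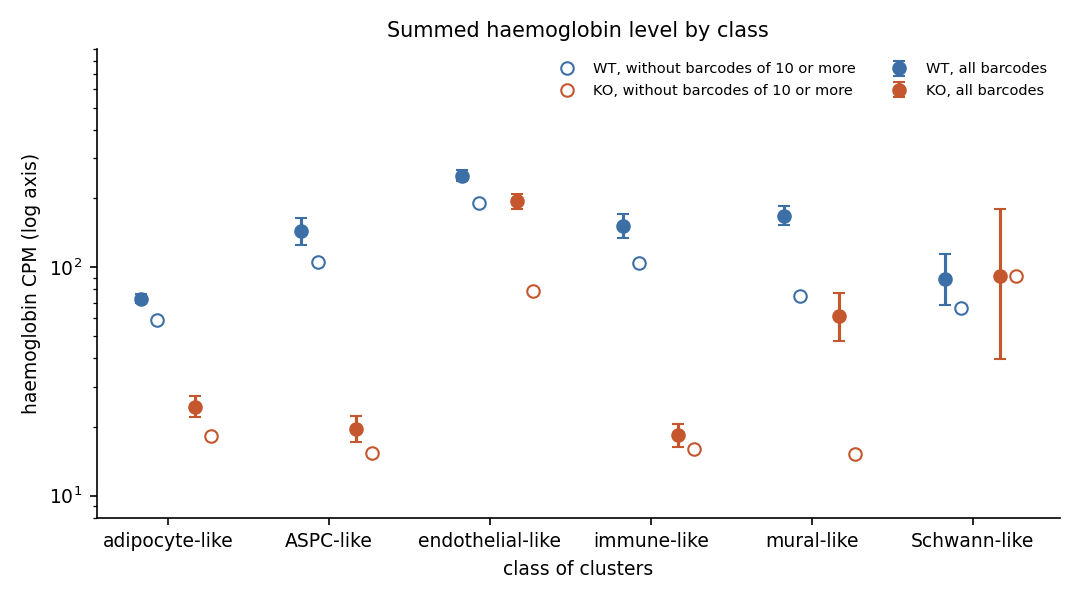
Summed haemoglobin level in CPM (y axis, log scale) by class of clusters (x axis) in WT and KO, with 95% Poisson intervals, and open circles for the level without barcodes of 10 or more haemoglobin UMIs. At the resolution drawn, 0.5, KO lies below WT in every class but Schwann-like, where the KO value rests on 8 UMIs, while at resolution 0.3 the adipocyte-like order turns. The endothelial-like gap widens when rich barcodes are left out, although inside cluster 3 of that class, not drawn alone, KO was above WT.

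Clusters that stayed unnamed lay outside these classes and held much of the haemoglobin. Of the clustered barcodes' haemoglobin UMIs, cluster 4 held 3500 of 11768 in WT and cluster 10 held 2894 of 6592 in KO. Deeper unnamed clusters held more. Cluster 7 had 2030 UMIs in WT (103 CPM) and 882 in KO (440 CPM, median 6985 total UMIs). Cluster 1 had 1084 UMIs in WT (110 CPM) and cluster 17 had 1094 in KO (49.6 CPM). The shallow unnamed clusters had high levels. Cluster 4 held 3208 WT barcodes (median 1011.5 UMIs) at 806 CPM of haemoglobin, and its leading genes were those of skeletal muscle fibres such as Myh4, Acta1 and Ckm with mt-Nd6 and Hbb-bs. Cluster 10 held 1039 KO barcodes (median 852 UMIs) at 1506 CPM (1452 to 1562), led by Saxo1, Tnni1, Gm37223 and Tph2, and 389 WT barcodes (median 2203 UMIs) at 180. It contained 42 of the 46 shallow KO barcodes with 3 or more haemoglobin UMIs, 95 of the 120 with 1 or 2 (79.2%) and 493 of the 814 with none (60.6%). Most barcodes of that cluster therefore held no haemoglobin UMI, and 23.0% of its KO barcodes held at least 1. All KO barcodes under 1000 UMIs together held 801 haemoglobin UMIs, so most of the 2894 of cluster 10 lay in its deeper barcodes. Its level without rich barcodes was not taken, and its Poisson interval is too narrow.

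Across 28 groups of library and cluster, the genes whose level ran most like that of summed haemoglobin were Rps25 (Pearson r 0.90), Rpl8 (0.89), Rplp2 (0.89), Rps2 (0.89) and Gpx4 (0.87). The first 4 encode ribosomal proteins and Gpx4 a glutathione peroxidase. The measure was taken on log2 of CPM plus 1 over 15131 genes, and the groups share libraries and depth, so no p is given. The members themselves ran from 0.95 (Hba-a1) to 1.00 (Hbb-bs), as parts of that sum must.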

How the data were processed

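Nuclei of interscapular brown adipose tissue were profiled by 10x Genomics 3′ chemistry, 1 library per genotype. The files as deposited by the authors hold unnormalized UMI counts, a gene in each row and a barcode in each column, made with Cell Ranger and STAR on GRCm38 (mm10). The submitters' processing notes name Cell Ranger 5.0.0 and Seurat 3.1.1, while the methods name another Cell Ranger release. Whether intronic reads were counted, and whether the deposited counts were down-sampled, is not given in the sources used here. All 24341 deposited barcodes entered the levels, also those that the paper's quality control left out, with no removal of doublets or free RNA. Reads that match 2 genes equally well are usually not counted by this pipeline, which bears on Hba-a1 and Hba-a2.

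The 4 genes, the gene lists and the limits were chosen with earlier results of these data known. UMIs were summed over barcodes and given as counts per 1000000 UMIs (CPM), with exact Poisson intervals, exact binomial (Clopper-Pearson) intervals for shares and exact conditional intervals for ratios of counts (Python 3.11.15, scipy 1.17.1), all at 95%. A count of 0 allows up to 3 counts. No test was made. Thinned shares are expected values after a draw of 500 UMIs per barcode. Clusters (scanpy 1.11.5, leidenalg 0.10.2) used barcodes with 200 genes or more, log UMIs and genes within 3 median absolute deviations and at most 10% mitochondrial UMIs, 2000 variable genes without the 4 members, 30 components, 15 neighbours and resolution 0.5, which gave 18 clusters of 24149 barcodes. A cluster took the class with most markers among its 10 leading genes, otherwise the class with the largest share of markers 1.5 times higher and the runner-up under 50% of it, and needed 3 markers. Clusters whose median UMI count was under 1/3 of that of their library stayed unnamed. This naming rule was set after the clusters were seen. Genes named in the text are the members, other globins, list members, the 10 largest and 5 smallest ratios among genes with 50 UMIs, the 5 most alike patterns and Srsf1. The comparison of genes was tested on simulated data. Differential expression values of the authors were not used. Alternatives were other barcode filters, bins, thresholds, totals, member sets, cluster settings and left-out rich barcodes.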

Additional observations from a re-analysis of the deposited data

How the results depend on the processing

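No paired analysis was possible because there was 1 library per genotype. A value is called stable here where it stayed inside its own counting interval, or a count within 1.5 times. Of 85 alternatives 31 left the value there, 50 moved it with its direction kept and 4 turned its direction. Alternatives that left out barcodes with 10 or more, or 30 or more, haemoglobin UMIs were chosen after seeing the data. Where no cause is given, the cause was not tested.

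The log2 ratio of KO to WT over all barcodes (-0.68) was -0.72 with the filter by median absolute deviations, -0.93 with 500 to 5000 genes and at most 5% mitochondrial UMIs, -0.91 as a mean over barcodes, -0.75 without the shallow barcodes of 3 or more haemoglobin UMIs, -0.76 without Hba-a1 and -0.55 without Hbb-bs. It was -1.61 without barcodes of 10 or more and -1.41 without those of 30 or more.

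The log2 ratio of the shallow to the deep bin in WT (3.20) was 3.54 with bins at 1500 and 5000, 2.82 as a mean over barcodes and 3.04 without barcodes of 30 or more. In KO (3.97) it was 2.82 with bins at 750 and 2000, 3.65 with bins at 1500 and 5000, 3.62 as a mean over barcodes, and 4.53 and 4.36 without barcodes of 10 or more and of 30 or more. No WT barcode lay under 750 UMIs, so that bin gave no WT value.

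The log2 ratio of KO to WT under 1000 UMIs (0.46) turned to -0.36 with the limit at 1500 and to -0.16 without barcodes of 10 or more, and was 0.013 without those of 30 or more. Between 1000 and 3000 (-2.01) it was -1.81 as a mean over barcodes, -1.82 without barcodes of 30 or more, -0.68 with bins at 750 and 2000 and -1.14 with bins at 1500 and 5000. Above 3000 (-0.32) it was -0.37 as a mean, -1.46 and -1.30 without barcodes of 10 or more and of 30 or more, and -0.47 and -0.46 with the other bins.

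The 46 shallow KO barcodes became 70 at 2 or more UMIs, 24 at 5 or more, 19 below 750 total UMIs, 27 without Hba-a1 and 26 without Hbb-bs. The 207 genes at least 2-fold higher became 11 of 270 against barcodes with 1 or 2 haemoglobin UMIs, 660 of 5896 at 20 UMIs per gene, 22 of 486 at 200 UMIs and 125 of 1841 inside cluster 10, where fewer genes were compared in all but the 20-UMI setting. With Hba-a1 and Hbb-bs alone the alpha share was 33.4% in WT and 39.8% in KO.

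By class the log2 ratio of KO to WT in adipocyte-like barcodes (-1.57) turned to 1.43 at resolution 0.3, where the class took in 2883 KO barcodes in place of 2068, and was -1.22 with no filter. In ASPC-like barcodes (-2.88) it was -3.47 with no filter. In endothelial-like barcodes (-0.38) it was -1.40 at resolution 0.3, where 75 KO barcodes remained in the class, -0.088 at resolution 1.0 and -1.28 without barcodes of 10 or more. In immune-like barcodes (-3.04) it was -2.13 and -2.34 at resolutions 0.3 and 1.0, -1.92 with the members kept among the variable genes, -2.12 with no filter and -2.71 without barcodes of 10 or more. In mural-like barcodes (-1.47) it was -2.30 without barcodes of 10 or more. In Schwann-like barcodes (0.04) it turned to -0.091 at resolution 1.0 and was 2.91 with the members kept in and 3.93 with no filter, where the class held 1253 and 1078 WT barcodes in place of 88. No cluster was called Schwann-like at resolution 0.3. With 8 haemoglobin UMIs in that KO class, counting error alone limits its value.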
